A study of Homo sapiens with 2 samples.

Results

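A group of 5 immune genes, whose products are secreted or act at the cell surface, was followed in H1299, a widely used p53-deficient cell line from a human non-small cell lung carcinoma. The group held the cytokine gene IL6, the chemokine gene CCL5, the cytokine receptor gene IL7R and the complement genes CFB and C4BPA, among 221 genes that could be named in the deposited table. They were chosen from the table itself by their known roles, and every feature of that table already differed by at least 2-fold between the arrays. That each of them differed is therefore not a finding, and their values are given as a description. Lists and members were chosen with earlier results of these data known.

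Both groups were H1299 cultures grown in RPMI-1640 with 10% fetal bovine serum and transfected by lipofection, one with a miR-138 mimic and the other with NC mimics, a negative control. A mimic is a short synthetic RNA duplex that supplies a mature microRNA. RNA was profiled after 48 h on 1 whole-transcript Affymetrix array per mimic, so no difference below has a replicate check, an error or a test. The labels give neither the mimic dose nor the sequence of either mimic, and they describe no untransfected culture. In bulk RNA, fewer cells expressing a gene cannot be told apart from less of its RNA per cell. The feature named MIR138-1, a gene for miR-138, had a log2 signal of 14.07 on the miR-138 array and 6.13 on the NC array, the direction that the labels give.

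Cytokines and chemokines are secreted signals that recruit or instruct immune cells, and both leukocytes and epithelial tumour cells can make them. Their genes are often switched on together by NF-kB, by interferon-activated factors and by AP-1. Complement is a cascade of plasma proteins that tags and lyses cells. The liver makes most of it, but lung epithelium also produces several components, and membrane-bound and soluble regulators hold the cascade in check.

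A mature form of miR-138, hsa-miR-138-5p, is shown first because every comparison rests on a miR-138 mimic. The labels do not say which mature form the mimic supplied. RefSeq lists the same mature hsa-miR-138-5p for MIR138-1 (chr3:44114234-44114256, plus strand) and MIR138-2 (chr16:56858527-56858549, plus strand) in GRCh38.p14. Capitals mark its seed, bases 2 to 8, the stretch with which a microRNA recognises its targets. Whether transcripts of the 5 genes hold matches to this seed was not examined here.
hsa-miR-138-5p: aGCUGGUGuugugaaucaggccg

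On these 2 arrays the 3 signalling members and the 2 complement members lay on opposite sides. Both ligands and the receptor were higher with the miR-138 mimic, and both complement genes were lower. Of the 5 genes 3 were higher, where 42.8% of the 243 features of the table were higher, and 2 were lower, where 57.2% of the features were lower. Their differences (miR-138 mimic minus NC mimic) ran from -1.59 to 2.01 on the log2 scale, with a median of 1.05 against -1.05 over the whole table. Since the table holds no difference between -1 and 1, such a median follows the share of genes on each side.

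**Figure D1:**
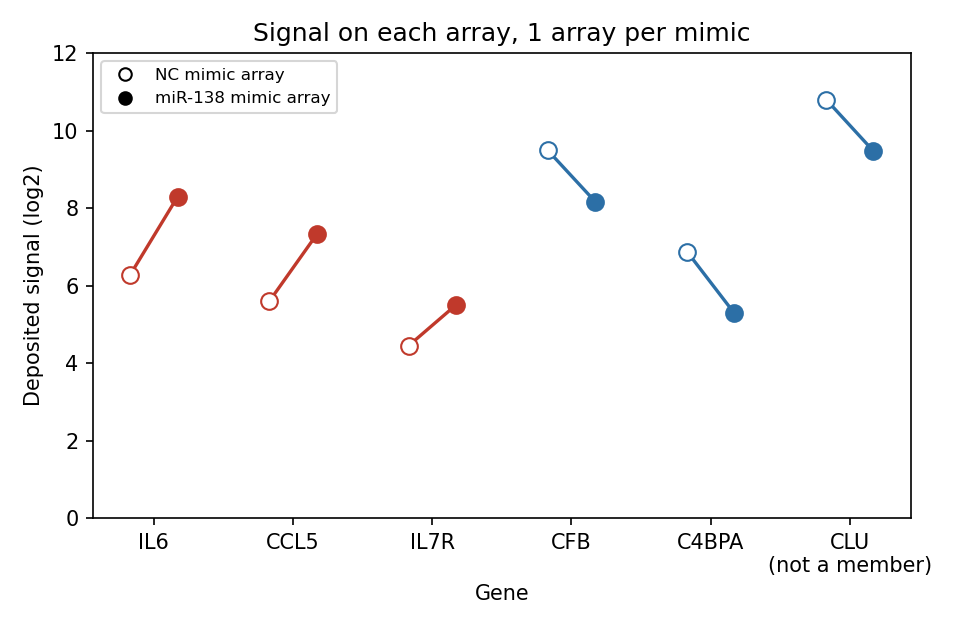
Deposited log2 signal of IL6, CCL5, IL7R, CFB, C4BPA and, for comparison, the complement regulator CLU on the NC mimic array (open circles) and the miR-138 mimic array (filled circles). Each line joins the 2 values of 1 gene, red where the miR-138 array was higher and blue where it was lower. Levels of different genes come from different probes and are not comparable. The 3 signalling genes slope up, IL6 most steeply from 6.28 to 8.29, and the 3 complement genes slope down.

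IL6 encodes interleukin-6, a cytokine that signals through IL6R and the shared receptor chain gp130 and drives the acute phase response. Its feature (TC07000137.hg.1, coded to chromosome 7) had a log2 signal of 8.29 with the miR-138 mimic and 6.28 with the NC mimic. On a linear scale these are signals of 313 and 77.7. The difference of 2.01, or 4.03-fold, was the largest of the 5 genes. It ranked 9 of the 104 higher features, MIR138-1 included. At a log2 limit of 2, IL6 alone of the 5 genes was left, where 3.7% of all features were higher and 3.7% were lower by that much. The deposited values carry 2 decimals, and rounding alone places this difference between 2.0 and 2.02, so IL6 sits at the edge of that limit.

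CCL5, also known as RANTES, is a chemokine that attracts T cells and monocytes. Its feature (TC17001378.hg.1, coded to chromosome 17) read 7.32 with the miR-138 mimic and 5.60 with the NC mimic, linear signals of 160 and 48.5. The difference of 1.72, or 3.29-fold, ranked 20 of the 104 higher features and was 0.29 smaller than that of IL6. CCL5 and IL6 were the 2 secreted ligands of the group, and they were the members that were higher by at least 1.5, a limit passed upwards by 12.3% of all features.

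IL7R encodes the alpha chain of the interleukin-7 receptor, which also serves in the receptor for TSLP and is best known from lymphocytes. Its feature (TC05000159.hg.1, coded to chromosome 5) read 5.50 with the miR-138 mimic and 4.45 with the NC mimic, linear signals of 45.3 and 21.9. The difference of 1.05, or 2.07-fold, was 0.05 above the limit of the table and the member value nearest to it. It ranked 81 of the 104 higher features and was 0.96 smaller than that of IL6. The 43 other features within 0.1 of its difference show how crowded the table is near its limit.

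CFB encodes complement factor B, the serine protease that forms the C3 convertase of the alternative pathway together with C3b. Its feature read 8.17 with the miR-138 mimic and 9.49 with the NC mimic, linear signals of 288 and 719. The difference of -1.32, a 2.5-fold lower signal, ranked 56 of the 139 lower features. The feature ID (TC6_cox_hap2000245.hg.1) codes an alternate haplotype of the major histocompatibility region on chromosome 6, and it was the only one of the 243 features coded to such a haplotype. The 14 features coded to the reference chromosome 6 included none named CFB. A reference CFB feature that differed by less than 2-fold would be absent from the table, so its value cannot be seen here. C2, the paralogue of CFB in the classical pathway, was not analysed here, and probe sequences were not used, so hybridisation shared between these related genes was not tested.

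C4BPA encodes the alpha chain of C4b-binding protein, a soluble inhibitor of the classical and lectin pathways that helps factor I to inactivate C4b. Its feature (TC01001733.hg.1, coded to chromosome 1) read 5.29 with the miR-138 mimic and 6.88 with the NC mimic, linear signals of 39.1 and 118. The difference of -1.59, or 3.01-fold, ranked 23 of the 139 lower features and was larger in size than that of CFB by 0.27. C4BPA was the only member lower by at least 1.5, a limit passed downwards by 12.3% of all features. In the RefSeq gene order C4BPA lies between C4BPB, its beta chain, and CD55, a membrane regulator of complement, neither of which was analysed here. The pair of lower complement members thus holds an activating protease and an inhibitor.

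**Figure D2:**
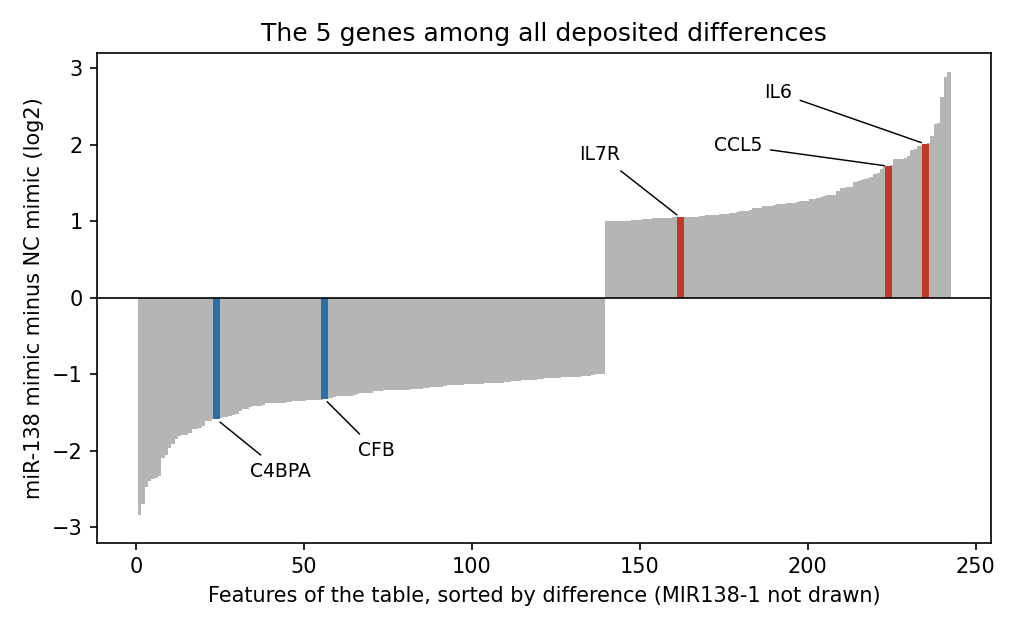
Log2 differences (miR-138 mimic minus NC mimic, vertical axis) of the features of the table in rising order, with MIR138-1 left out because its difference of 7.94 would compress the scale. Grey bars are other features, red bars the 3 members with higher and blue bars the 2 with lower signal on the miR-138 array. IL6 and CCL5 lie towards the upper end, IL7R lies near the limit of 1, and CFB and C4BPA lie within the lower side. The empty band between -1 and 1 is a property of the deposited table.

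Signal strength differed among the 5 genes, and a dim feature gives a less certain difference. The 25th percentile of the mean log2 signal of both arrays was 6.57 over the table. IL7R, C4BPA and CCL5 lay below it, so 2 of 5 members, IL6 and CFB, passed a filter on the lowest 25% of features. These 2 still differed in opposite directions. CFB was the only member at or above the median mean signal of 7.35. Detection calls for the features were not used here, so it was not tested whether IL7R at 4.45 or C4BPA at 5.29 stood above background.

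**Figure D3:**
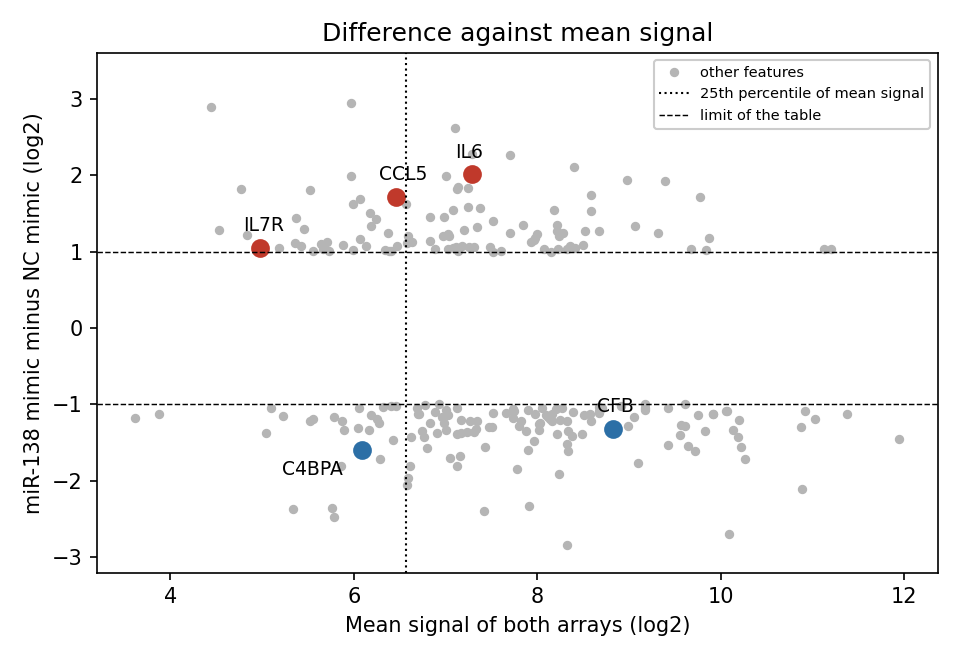
Log2 difference (vertical axis) against the mean log2 signal of both arrays (horizontal axis) for the features of the table, with MIR138-1 left out. Coloured points are the 5 members, grey points the other features, the dotted line the 25th percentile of mean signal at 6.57 and the dashed lines the limit of the table at 1 and -1. IL6 and CFB lie to the right of the dotted line, whereas IL7R, C4BPA and CCL5 lie to its left.

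Lists of related genes were written to see what else of these pathways the table held. The lists of cytokines, of chemokines and of their receptors held 66, 43 and 74 symbols. IL6, CCL5 and IL7R were the only ones of these 183 genes with a value, all 3 higher, where 42.8% of all features were higher. That shared direction depends on how the lists were written. They left out the cytokine gene KITLG, which was lower (-1.31), and the receptor gene TNFRSF9, which was higher (1.03). KITLG and TNFRSF9 were picked after their values were seen. The lists of complement components and of complement regulators and receptors held 26 and 30 symbols. Of these genes 3 had a value and all 3 were lower, where 57.2% of all features were lower. Besides CFB and C4BPA this was CLU, or clusterin, a secreted chaperone that also blocks assembly of the membrane attack complex. CLU read 9.47 with the miR-138 mimic and 10.80 with the NC mimic, a difference of -1.33 or 2.51-fold. The median was 1.72 for the cytokine, chemokine and receptor genes and -1.33 for the complement genes, against -1.05 over all features. With 3 genes on each side chosen from a table limited to large differences, these counts describe the table and not the pathways.

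No gene of 3 further lists had a value, namely the 23 genes of JAK-STAT signalling and its SOCS inhibitors, the 35 NF-kB subunits and regulators, and the 40 acute phase and coagulation genes. The interleukin-6 receptor chains IL6R and IL6ST, the IL7R partner IL2RG, and C3, the substrate of the factor B convertase, were likewise not analysed here. Whether such genes differed by less than 2-fold is beyond what the table shows. The same limit applies to cell identity. Of 20 leukocyte, 11 hepatocyte, 12 lung cancer epithelial, and 13 endothelial and fibroblast marker symbols, the fibroblast proteoglycan gene DCN alone had a value, 4.55 with the miR-138 mimic against 7.02 with the NC mimic. H1299 identity and a contribution of other cells to the immune genes were therefore not tested.

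Among features with 1 gene, those with the closest differences were named by distance on the log2 scale, over 1 difference each. For IL6 these were the immediate early transcription factor gene EGR1 (8.28 against 6.26, a difference of 2.02) and, equally near to each other, the interferon-induced gene IFI44 (6.96 against 4.97, 1.99) and RIGI, a sensor of double-stranded RNA (1.99). For CCL5 they were the histone deacetylase gene HDAC9 (1.74) and the zinc finger gene ZNF461 (1.69), although a feature unnamed here had the same difference as CCL5, 1.72. For IL7R they were the fatty acid elongase gene ELOVL4 and the placental gene PLAC1, both at 1.05. CFB was matched by EDIL3, which encodes an integrin-binding matrix protein, at -1.32. CLU and PDE3A, both at -1.33, and KITLG, at -1.31, tied for the next place, so CLU was no nearer to CFB than genes outside complement. C4BPA was matched by the natriuretic peptide receptor gene NPR3 at -1.59, and KLHL13, an adaptor of a ubiquitin ligase, at -1.57, tied for the next place with S100A4 and PIEZO2, both at -1.61. Within 0.1 of a member's difference lay 6 other features for IL6, 8 for CCL5, 10 for C4BPA and 38 for CFB, so that a close value is a weak likeness for CFB and, with 43, for IL7R.

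Promoters were compared because members of both directions are known targets of inflammatory factors. RefSeq windows of 250 bases before to 50 after the gene start (GRCh38.p14) were found for 4 of the 5 genes, IL6, IL7R, CFB and C4BPA. Both strands were searched for the NF-kB motif by its name, GAAANNGAA as the core of the interferon response element, TTCNNNGAA (GAS, the STAT dimer motif), TGANTCA (AP-1) and TTGCNNAA (C/EBP). The windows of IL6 and CFB are printed because they hold all the matches, and because these 2 genes, on opposite sides, are the members outside the lowest 25% of signals. Capitals mark the matches, none of which overlaps another.
IL6 (chr7:22726950-22727249, plus strand): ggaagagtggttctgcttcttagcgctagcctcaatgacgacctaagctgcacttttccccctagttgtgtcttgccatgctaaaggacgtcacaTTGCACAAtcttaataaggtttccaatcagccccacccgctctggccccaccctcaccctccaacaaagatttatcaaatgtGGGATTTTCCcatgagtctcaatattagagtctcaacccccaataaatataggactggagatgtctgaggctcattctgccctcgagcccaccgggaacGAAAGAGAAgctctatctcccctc
CFB (chr6:31945845-31946144, plus strand): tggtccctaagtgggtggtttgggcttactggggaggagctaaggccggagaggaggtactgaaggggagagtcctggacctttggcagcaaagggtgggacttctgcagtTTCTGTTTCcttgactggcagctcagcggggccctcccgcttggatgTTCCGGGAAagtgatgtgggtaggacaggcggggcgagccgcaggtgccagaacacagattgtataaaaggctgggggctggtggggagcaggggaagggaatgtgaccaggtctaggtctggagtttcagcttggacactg

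The IL6 window held, in order, a C/EBP match from -155 to -148, an NF-kB match from -73 to -64 and an interferon response element core from 27 to 35, counted from the gene start. The CFB window held an interferon response element core on the minus strand from -139 to -131 and a GAS match from -92 to -84. The windows of IL7R and C4BPA held no match to any of the 5 motifs, and AP-1 matched none of the 4 windows. The interferon core was thus shared by a gene that was higher and a gene that was lower with the miR-138 mimic. Such matches are common. Of 35116 windows in the RefSeq table, 5.91% held the NF-kB motif, 8.11% the interferon core, 7.66% GAS, 7.71% AP-1 and 10.5% C/EBP. A match of letters does not show that a factor binds there.

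**Figure D4:**
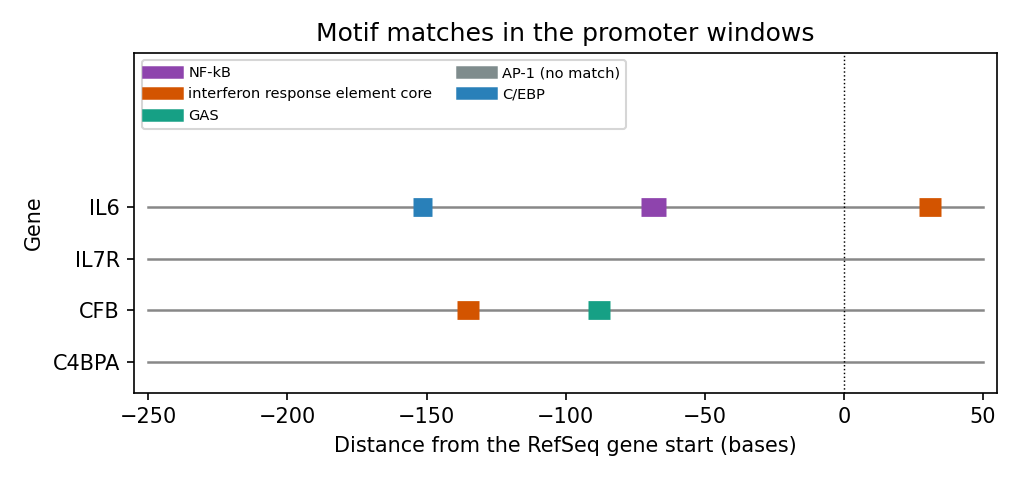
Motif matches (coloured blocks) along the promoter windows of 4 genes, with the distance from the RefSeq gene start in bases on the horizontal axis and 1 line per gene. IL6 carries 3 matches and CFB 2, whereas the windows of IL7R and C4BPA carry none. The dotted line marks the gene start.

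The scale of the 2 arrays could be checked only within this table. Each centring made the median signals of the 2 arrays equal over a set of features. The median of the differences was not what was removed. Centring on the features at or above the median mean signal added 0.22 to every difference. It left 104 features higher and 73 lower by at least 1, so that 58.8% of them were higher, compared with 42.8% as deposited. The higher count could only stay the same, because the table holds no difference between -1 and 1 that a positive shift could lift past 1, so this rise in the higher share follows from the limit of the table. The 5 genes kept their directions and their side of the limit of 1, with IL6 at 2.23 and CFB at -1.11. A common shift of this size could not turn the direction of any of these 5 genes, because each differed by more than 1.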

How the data were processed

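The deposited table gives log2 signals of 243 transcript clusters (features, each a set of probes for 1 gene or transcript group) with 2 decimals, 1 column per array. They were made with Affymetrix Expression Console, per the submitters' processing notes. How signals were summarised, scaled between arrays and filtered is not stated in the labels, and the log2 base was inferred from the range of values. Features were named through the platform annotation, updated with RefSeq (GRCh38.p14): 221 had 1 gene, 9 had several and 13 were unnamed here. The feature IDs give no build, so the features have no coordinates here, and those printed belong to the RefSeq sequences. Differences were taken as miR-138 mimic minus NC mimic. With 1 array per group no test was made. All genes of the related lists, and for each member the 2 single-gene features nearest in difference (ties by symbol), were named by rule. Genes that tied with these were added after their values were seen. The members and lists were chosen with earlier results of these data known. Differences, counts and the motif search were tested on made-up data. Alternatives were 3 ways of centring, filters on dim features and higher fold limits. Python 3.11.15, NumPy 2.4.6, pandas 2.3.3 and Matplotlib 3.10.9 were used.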

Additional observations from a re-analysis of the deposited data

How the results depend on the processing

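The number of arrays limits the precision, and signal over background was not available. No paired analysis was possible because each mimic had a single array, and no replicate could be left out. All 5 directions were kept under the 3 centrings, which could not turn a difference beyond 1. IL6, CCL5, IL7R, CFB and C4BPA were at 2.07, 1.78, 1.11, -1.26 and -1.53 with centring on all features. They were at 2.06, 1.77, 1.10, -1.27 and -1.54 with centring on features with 1 gene, and at 2.23, 1.94, 1.27, -1.11 and -1.38 with centring on features at or above the median mean signal. The last of these left 73 lower features by at least 1 instead of 139. The 3 centrings were planned, but counting at the limit of 1 after any of them was chosen after seeing the data. Without the lowest 25% of mean levels, 1 member was higher (IL6) and 1 lower (CFB), where 69 features were higher and 113 lower. At or above the median level CFB was the only member left, so the directions of the members could not be compared there. Features of each side were not counted at that level. A log2 limit of 1.5 left 2 higher members and 1 lower member, with 30 features higher and 30 lower. A limit of 2 left 1 higher and 0 lower members, with 9 features higher and 9 lower. The counts under the filters on dim features fell because fewer features were kept. Those under the higher limits fell because the limit was stricter.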

Other observations

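The cytokine signalling genes KITLG, TNFRSF9 and MAP3K8 had values. They were on none of the lists and were picked once their values were known. KITLG, which encodes the haematopoietic cytokine stem cell factor, read 5.39 with the miR-138 mimic and 6.70 with the NC mimic, a difference of -1.31. This secreted or membrane-bound ligand was thus lower, unlike IL6 and CCL5, so the shared direction of the listed ligands does not extend to every cytokine gene of the table. TNFRSF9, the costimulatory receptor 4-1BB, read 6.18 against 5.15, a difference of 1.03 close to that of IL7R. MAP3K8, a kinase that relays NF-kB-linked signals to ERK, read 6.16 against 7.21, a difference of -1.05. KITLG and TNFRSF9 lay in the lowest 25% of mean signals, and TNFRSF9 and MAP3K8 lay within 0.05 of the limit of the table.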
